A study of Mus musculus with 18 samples.

Results

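Glycolytic enzymes and the glucose transporter that feeds them were followed in mouse myoblasts of the established C2C12 line after 5 enzymatic treatments of the dish and in cells that met no enzyme. The 10 genes, picked by symbol from the 25957 genes with deposited counts, were Slc2a1, Hk2, Aldoa, Tpi1, Gapdh, Pgk1, Pgam1, Eno1, Pkm and Ldha. They cover glucose entry, 8 enzymatic steps between glucose and pyruvate, and the reduction of pyruvate to lactate. BRB-seq was used, which barcodes the cDNA of each sample before pooling and reads mainly the poly(A)-proximal ends of mRNAs, so a gene's count depends on the sequence of its mRNA end. Each of the 6 groups held 3 libraries, numbered as lots 1 to 3 in the labels and called replicates 1 to 3 here. All cells grew in 6-well plates in DMEM with 1 g/L D-glucose, 20% fetal bovine serum, 2 mM L-glutamine and antibiotics. Cells of the time series were rinsed with PBS and covered with 0.25% trypsin (200 µL), in which they stayed at 37 °C during 30 s, 3 min or 30 min. For low trypsin, the same volume was removed immediately, and the dish was left at 37 °C for 3 min. In the cold-active protease group the cells were rinsed and shaken at 4 °C for 5 min in 200 µL of a protease that works in the cold. Control cells were lysed on the plate and scraped. A treated group therefore differs from control in rinsing, waiting time and harvest as well as in the enzyme. The sources do not say whether lots were separate cultures; the p-values therefore reflect no more than how these libraries vary, and that variation may be technical.

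Glycolysis splits glucose into pyruvate in the cytosol and yields ATP and NADH. Glucose enters through transporters of the GLUT family, hexokinase traps it as glucose 6-phosphate, and aldolase and triose phosphate isomerase produce the triose phosphate that the later enzymes carry down to pyruvate. Proliferating myoblasts send much of this pyruvate to lactate through lactate dehydrogenase, which restores NAD+ for the GAPDH step, and in mammals many of these genes are targets of the hypoxia-inducible factor HIF-1 and of Myc.

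Library totals were 1490869 to 2480690 counts, at which a floor of 3 counts equals 1.21 to 2.01 CPM (counts scaled to a common library total), counting error only. Together, the 10 genes made up 0.468% to 0.521% of each library's counts. CPM values below are scaled by TMM, edgeR's correction between libraries, and given as mean ± SD of 3 libraries. Log2 fold changes with their standard errors (SE) and adjusted p-values come from edgeR's quasi-likelihood test with Benjamini-Hochberg adjustment over 10075 genes, of which 9 of the 10 passed the filter on low counts; a gene is called at an adjusted p under 0.05. CPM is not divided by mRNA length, so levels are compared between groups for 1 gene and never between genes. Myoblast markers were present in every library, with summed levels of 1412 to 1678 CPM for 8 genes, among them Myod1, Myf5 and Des. Des held the most counts of these, 30297 over 18 libraries. Pax7, also on the list, had 21 and did not pass the filter on low counts. Markers of fat, bone, immune, endothelial and epithelial cells summed to at most 8.69 CPM for 13 of 17 genes with counts; Adipoq, Plin1, Cidec and Bglap were at 0. Markers of differentiating muscle (13 genes, of which Eno3 held the most counts) had summed levels between 1178 and 1214 CPM in the 30 s libraries, between 1158 and 1199 CPM in the 3 min libraries and between 1081 and 1116 CPM in the 30 min libraries. Their sums were between 1076 and 1116 CPM with low trypsin, 1197 and 1215 CPM with the cold-active protease, and 1282 and 1337 CPM in control. Most of these sums was Eno3, itself a glycolytic enolase, which averaged 1007 ± 41 CPM in control and 865 ± 25 CPM after 30 min (SD, n = 3 each). The part of these markers in the results was not tested, and in bulk RNA fewer cells of a type and less RNA per cell cannot be told apart.

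The starts of 4 of the genes are shown because Hk2, Aldoa and Tpi1 rose together after 30 s of trypsin while Eno1 fell. The windows run from 250 bases before to 50 after a RefSeq start on GRCm38.p6, 5′ to 3′ on the strand of the gene, taking the start nearest to that of the principal transcript. The distance between these starts was 0 bases for Hk2 and Aldoa, 138 for Tpi1 and 244 for Eno1. The Eno1 window shown does not reach the principal start. Another Eno1 RefSeq start, 245 bases away, has a window that does. Capitals mark ACGTG or GCGTG on either strand, the core letters of the element that HIF-1 binds. They lie at chr6:82774405-82774704 on the minus strand for Hk2, chr7:126799205-126799504 on the minus strand for Aldoa, chr6:124814109-124814408 on the minus strand for Tpi1 and chr4:150236458-150236757 on the plus strand for Eno1.
Hk2: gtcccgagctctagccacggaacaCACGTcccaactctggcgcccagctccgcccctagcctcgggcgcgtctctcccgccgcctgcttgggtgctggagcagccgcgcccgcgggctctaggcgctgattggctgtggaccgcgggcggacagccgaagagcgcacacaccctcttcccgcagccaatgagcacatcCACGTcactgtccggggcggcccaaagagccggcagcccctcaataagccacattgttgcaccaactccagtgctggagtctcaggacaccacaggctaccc
Aldoa: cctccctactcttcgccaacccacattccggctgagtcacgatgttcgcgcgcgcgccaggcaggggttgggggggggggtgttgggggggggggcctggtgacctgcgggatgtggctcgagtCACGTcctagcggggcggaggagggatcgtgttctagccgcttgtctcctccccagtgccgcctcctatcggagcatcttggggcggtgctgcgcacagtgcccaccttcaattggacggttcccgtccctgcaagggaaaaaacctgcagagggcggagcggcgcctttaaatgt
Tpi1: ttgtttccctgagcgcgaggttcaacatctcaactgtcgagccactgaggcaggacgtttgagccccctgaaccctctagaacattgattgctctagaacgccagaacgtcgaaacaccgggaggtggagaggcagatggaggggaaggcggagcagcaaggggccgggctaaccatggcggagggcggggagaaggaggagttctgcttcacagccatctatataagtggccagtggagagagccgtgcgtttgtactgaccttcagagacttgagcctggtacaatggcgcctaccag
Eno1: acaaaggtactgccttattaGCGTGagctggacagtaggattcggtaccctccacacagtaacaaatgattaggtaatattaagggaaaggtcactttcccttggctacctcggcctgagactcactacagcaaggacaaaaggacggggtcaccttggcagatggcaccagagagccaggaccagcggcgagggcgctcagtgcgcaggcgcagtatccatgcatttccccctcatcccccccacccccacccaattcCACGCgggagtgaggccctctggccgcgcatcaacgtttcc
The letters occurred 2 times in the Hk2 window, 1 time in that of Aldoa, 0 times in that of Tpi1 and 2 times in that of Eno1. Among the nearest windows of the 10 genes, 8 held them, all but those of Tpi1 and Pkm, against 43.8% of 32851 promoter windows of the same length. The palindrome CACGTG, which overlaps ACGTG and is bound by Myc in mammals, was in 7.15% of all windows and in none of the nearest windows of the 10 genes. Of all 16 RefSeq windows of the 10 genes, 13 held the letters. Another Ldha window, further from the principal start, held CACGTG, and another Pkm window held 2 matches of the letters. The genes with the letters include those that rose, fell or were not called, and a match describes these letters only.

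Changes in the glycolytic genes went in both directions at once. After 30 s of trypsin 5 of the 9 tested genes were called, where 6.94% of all tested genes were: Hk2, Aldoa and Tpi1 rose, as did 3.24% of all genes, while Eno1 and Pkm fell, as did 3.7%. After 3 min, Hk2 and Aldoa rose and Eno1 fell, 3 of 9 genes against 3.96% of all genes (1.01% higher, 2.95% lower). After 30 min, Tpi1 rose and Eno1 and Pkm fell, 3 of 9 against 4.68% of all genes (2.07% higher, 2.61% lower). With low trypsin, Aldoa and Tpi1 rose and Eno1, Pkm and Pgk1 fell, 5 of 9 against 5.19% of all genes (3.3% higher, 1.9% lower). With the cold-active protease Eno1 alone was called, lower than in control, 1 of 9 against 0.665% of all genes (0.199% higher, 0.467% lower). The median log2 change of the 9 genes was 0.18 after 30 s, 0.02 after 3 min, -0.0013 after 30 min, -0.0085 with low trypsin and -0.03 with the cold-active protease, while that of all tested genes lay between -0.0029 and 0.0091. Over all 6 groups, an F test in edgeR called Hk2, Aldoa, Tpi1, Eno1 and Pkm, 5 of 9 genes against 11.5% of all genes. The 5 comparisons share the same 3 control libraries, so a control library that stands high or low for a gene moves all 5 values of that gene. Genes are not independent, and the medians rest on 9 values. The median after 30 s is the value of Pgam1, which had few counts and was not called (0.18 ± 0.25 SE, edgeR adjusted p = 0.808).

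**Figure D1:**
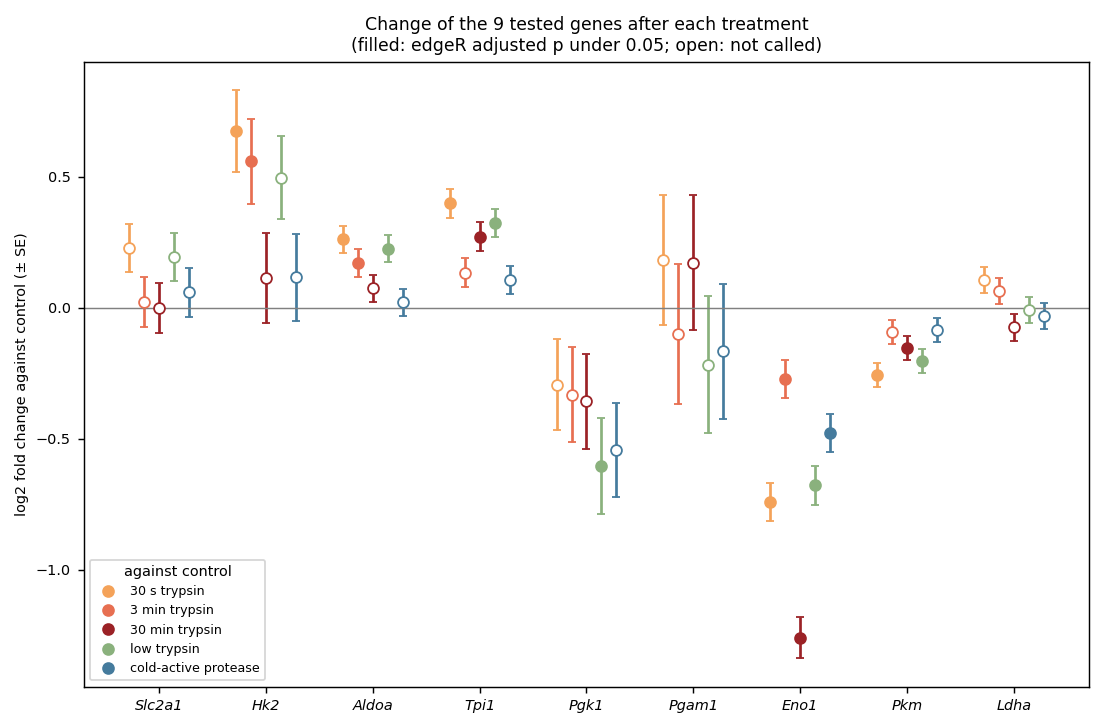
Log2 fold change against control (y axis, ± SE) of the 9 tested genes (x axis) after 30 s, 3 min and 30 min of trypsin, low trypsin and cold-active protease, from left to right within a gene; filled points had an edgeR adjusted p under 0.05. Eno1 is filled and below 0 after all 5 treatments, at -1.26 after 30 min, while Hk2, Aldoa and Tpi1 are above 0.

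Slc2a1 encodes GLUT1, the transporter of basal glucose uptake. It had 129.5, 130.1 and 132.8 CPM after 30 s, 119, 112.6 and 107.9 CPM after 3 min, and 123.2, 114.8 and 95.8 CPM after 30 min. The other groups gave 124.5, 118.6 and 138.8 CPM with low trypsin, 109.7, 119.4 and 119.4 CPM with the cold-active protease, and 108.5, 117.7 and 108 CPM in control. The 30 s and low trypsin libraries stood above all control libraries, and the other 3 groups overlapped control. No change passed the test: the log2 difference after 30 s was 0.23 ± 0.09 (SE; edgeR adjusted p = 0.148), with a 95% interval of 0.05 to 0.41, and that with low trypsin 0.19 ± 0.09 (adjusted p = 0.285). After 3 min the interval was -0.17 to 0.21 and after 30 min -0.19 to 0.19. The insulin-responsive transporter Slc2a4 (GLUT4) had 7 counts in all 18 libraries and was not tested, and Slc2a8, an intracellular transporter, had group means of 9.55 to 14.8 CPM with no call against control.

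Hk2 encodes hexokinase 2, the inducible hexokinase of muscle that binds the outer mitochondrial membrane. Its levels were 48.2, 48.2 and 50.9 CPM after 30 s, 46.5, 43.7 and 45.6 CPM after 3 min, and 24.5, 34.6 and 40.4 CPM after 30 min. Low trypsin gave 46.3, 40.1 and 43.5 CPM, the cold-active protease 31.3, 39.1 and 28.1 CPM, and control 29.5, 26.9 and 35.4 CPM. All libraries of 30 s, 3 min and low trypsin lay above those of control, while 30 min and cold-active protease overlapped control. Hk2 rose after 30 s, to 49.1 ± 1.5 CPM against 30.6 ± 4.3 CPM in control (SD, n = 3 each; log2 0.67 ± 0.16 SE, edgeR adjusted p = 0.00182), and after 3 min (45.3 ± 1.4 CPM, log2 0.56 ± 0.16, adjusted p = 0.0347). The 3 min call was lost without control replicate 1 or 2 or without any 3 min library (edgeR adjusted p = 0.0867 to 0.224) and with DESeq2 (adjusted p = 0.0742). The low trypsin difference of 0.50 ± 0.16 missed the threshold (adjusted p = 0.0548) and passed it without control replicate 3 (adjusted p = 0.0408). Hk1, the constitutive hexokinase, averaged 138 to 160 CPM in the 6 groups and was not called against control.

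The aldolase gene Aldoa, whose product splits fructose 1,6-bisphosphate, read 1181, 1236 and 1231 CPM after 30 s, 1143, 1117 and 1166 CPM after 3 min, and 1107, 992.2 and 1107 CPM after 30 min. It read 1150, 1190 and 1218 CPM with low trypsin, 1087, 1024 and 974.6 CPM with the cold-active protease, and 1055, 1033 and 957 CPM in control. The 30 s, 3 min and low trypsin libraries were all above the highest control library, the same 3 groups as for Hk2. Aldoa rose by a log2 change of 0.26 ± 0.05 (SE) after 30 s (edgeR adjusted p = 0.000198), 0.17 ± 0.05 after 3 min (adjusted p = 0.0459) and 0.23 ± 0.05 with low trypsin (adjusted p = 0.00251). The low trypsin call was lost without control replicate 3 (edgeR adjusted p = 0.0606). The 3 min call was lost without control replicate 2 or 3 or without any 3 min library (edgeR adjusted p = 0.0813 to 0.349) and under 5 of 9 other settings, the lot as replicate block among them (adjusted p = 0.0531). For 30 min and the cold-active protease the 95% intervals were -0.03 to 0.18 and -0.08 to 0.12.

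Tpi1 encodes triose phosphate isomerase, which interconverts the 3-carbon products of aldolase. It had 747.3, 749 and 713.7 CPM after 30 s, 630.7, 609.3 and 601.1 CPM after 3 min, and 686.3, 645.2 and 694.7 CPM after 30 min. Low trypsin gave 720.3, 704.5 and 675.6 CPM, the cold-active protease 591, 611.1 and 603.8 CPM, and control 544.9, 599.3 and 532.7 CPM. Every trypsin library stood above every control library, and the cold-active protease overlapped control in 1 library. Tpi1 rose after 30 s (737 ± 20 CPM against 559 ± 35.5 CPM in control; SD, n = 3 each; log2 0.40 ± 0.05 SE, edgeR adjusted p = 1.19e-07), after 30 min (0.27 ± 0.05, adjusted p = 0.000607) and with low trypsin (0.32 ± 0.05, adjusted p = 2.14e-05). These 3 calls held in each fit that left out 1 library. After 3 min the difference was 0.13 ± 0.06 (edgeR adjusted p = 0.23). The last bases of the Tpi1 gene (chr6:124810586-124814296, minus strand) overlap the end of Spsb2 on the other strand, and the sources do not state whether counting used strand; Spsb2 had 1199 counts over 18 libraries and Tpi1 22224.

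**Figure D2:**
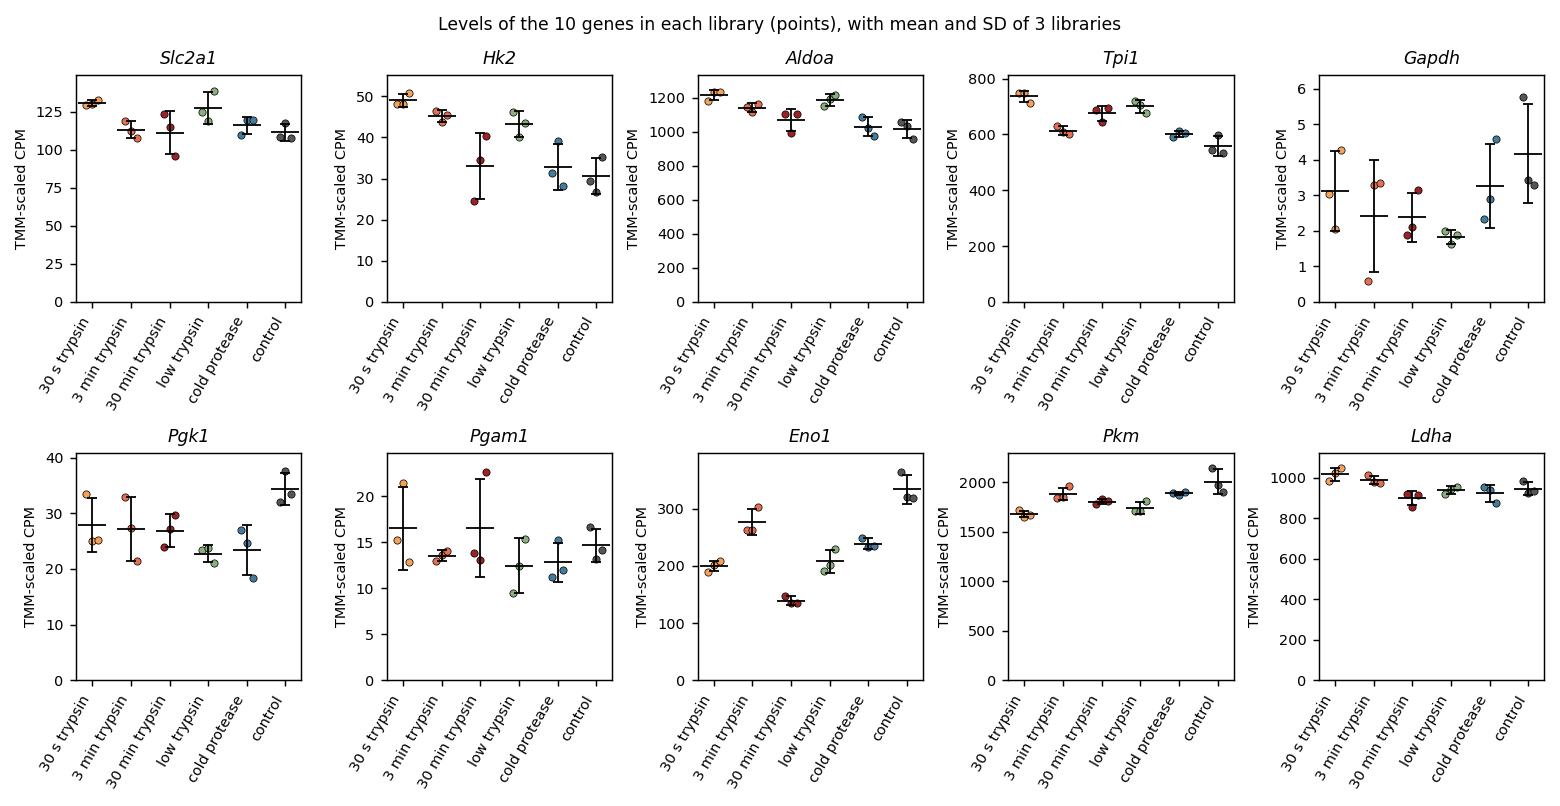
TMM-scaled CPM (y axes, each from 0) of the 10 genes in every library (points), with the mean and SD of 3 libraries, for 30 s, 3 min and 30 min of trypsin, low trypsin, cold-active protease and control (x axes, left to right). Eno1 is at 135 to 148 CPM after 30 min and at 318 to 364 CPM in control, and Gapdh is at 0.589 to 5.78 CPM.

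Gapdh, whose enzyme oxidizes glyceraldehyde 3-phosphate and whose mRNA often serves as a reference in expression studies, was almost absent from the counts. It had 1 to 9 counts a library, 97 in all, and group means of 3.13 ± 1.12 CPM after 30 s, 2.41 ± 1.57 after 3 min, 2.38 ± 0.68 after 30 min, 1.83 ± 0.19 with low trypsin, 3.27 ± 1.18 with the cold-active protease and 4.17 ± 1.4 CPM in control (SD, n = 3 each). It did not pass the filter on low counts, and its levels sit near the counting floor. Of the 45-base windows, the length of the sequenced read, in the last 500 bases of its principal mRNA, 91.7% were also found in transcripts of other genes in the GENCODE M21 annotation, 162 genes in all. Of these, 112 had counts, 1866 against 97 for Gapdh itself. The last bases of the Gapdh gene also overlap the end of Iffo1 on the other strand, which had 445 counts over 18 libraries. The sources do not state how reads with several matches were counted or whether counting used strand. The low Gapdh count is no measure of the gene's expression.

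Counts on the genes that share the Gapdh mRNA end differed between groups. Summed, they were 83.4, 78.4 and 78.7 CPM after 30 s, 47.1, 50.8 and 52.3 CPM after 3 min, and 37.7, 45.6 and 47.9 CPM after 30 min. Low trypsin gave 63.3, 57.9 and 76.2 CPM, the cold-active protease 45.8, 43.2 and 43.6 CPM, and control 33.4, 32.2 and 50 CPM. The 30 s and low trypsin libraries were above every library of the other 4 groups. When these counts were added to Gapdh, a setting chosen after seeing the data, the sum was higher than control after 30 s (log2 0.95 ± 0.13 SE, edgeR adjusted p = 1.85e-07) and with low trypsin (0.66 ± 0.14, adjusted p = 0.000758), and not called after 3 min (0.28 ± 0.15, adjusted p = 0.421), after 30 min (0.10 ± 0.15, adjusted p = 0.813) or with the cold-active protease (0.14 ± 0.14, adjusted p = 0.846). Gm7336, a processed pseudogene, held 867 of the 1866 counts and had 43.5, 43 and 43.4 CPM after 30 s, 41.8, 28.2 and 38.8 CPM with low trypsin and 10.3, 11.2 and 16.5 CPM in control. Gm7336 rose by 1.74 ± 0.21 on the log2 scale after 30 s (edgeR adjusted p = 4.02e-09) and 1.495 ± 0.21 with low trypsin (adjusted p = 9.92e-07). Gm5069, which shares 22.8% of the Gapdh windows, had 55, 35 and 26 counts after 30 s and 1, 2 and 2 counts in control. Its pattern differed: it was called higher after 30 s (edgeR adjusted p = 2.12e-10), 3 min (adjusted p = 0.00694) and 30 min (adjusted p = 0.000955). With low trypsin it was not called (log2 2.00 ± 0.64 SE, edgeR adjusted p = 0.056). Whether reads from Gapdh mRNA were placed on these genes cannot be told from gene counts.

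**Figure D3:**
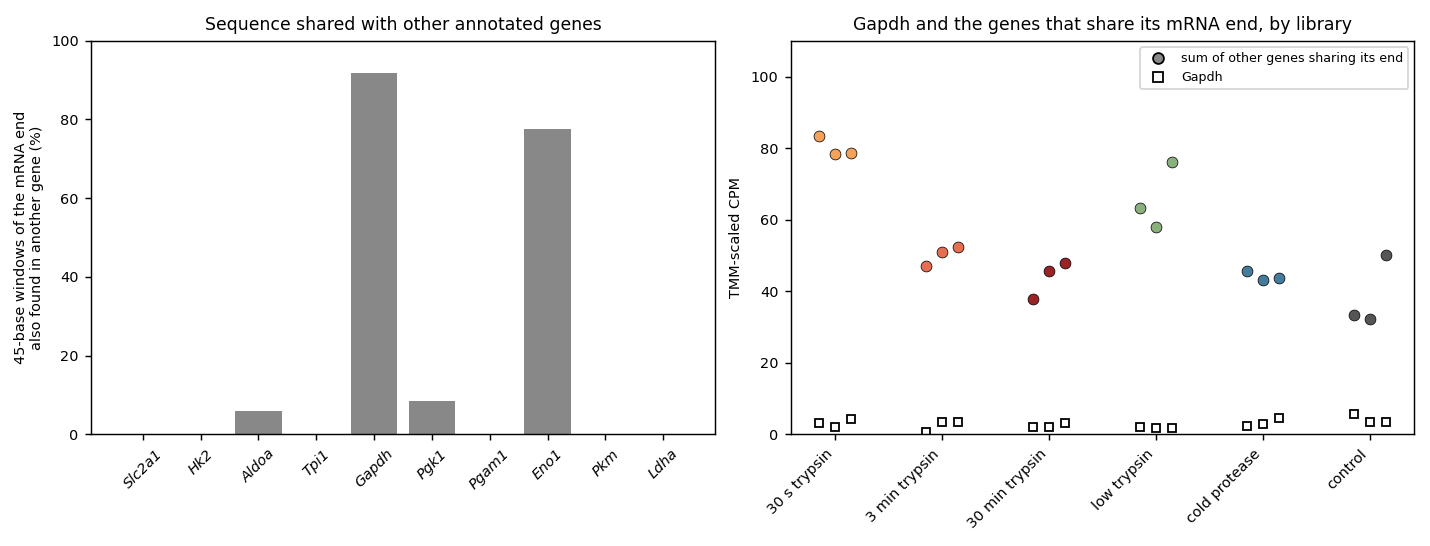
Left, share of 45-base windows (y axis, %) in the last 500 bases of each gene's principal mRNA that also occur in another annotated gene. Right, TMM-scaled CPM per library of Gapdh (squares) and of the sum of the other genes that share its end (circles) in the 6 groups; the bars for Gapdh and Eno1 reach 91.7% and 77.6%, and the sum is at 57.9 CPM or more after 30 s and with low trypsin.

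Pgk1 and Pgam1, the enzymes that follow, had few counts. Phosphoglycerate kinase (Pgk1), which makes the first ATP of the pathway, had 33.5, 25.1 and 25.2 CPM after 30 s, 33, 27.3 and 21.5 CPM after 3 min, and 23.9, 27.3 and 29.6 CPM after 30 min. It had 23.4, 23.8 and 21 CPM with low trypsin, 27.1, 24.7 and 18.4 CPM with the cold-active protease, and 32.1, 37.6 and 33.5 CPM in control. All 5 treated means were below the control mean, and the 30 min, low trypsin and cold-active protease libraries did not overlap control. Only the low trypsin difference was called (log2 -0.60 ± 0.18 SE, edgeR adjusted p = 0.0351), and that call was lost without control replicate 2 or 3, without any low trypsin library (adjusted p = 0.0705 to 0.177) and with DESeq2 (adjusted p = 0.107). The cold-active protease difference of -0.54 ± 0.18 was not called (edgeR adjusted p = 0.223). Phosphoglycerate mutase (Pgam1) averaged 16.5 ± 4.5 CPM after 30 s, 13.6 ± 0.56 after 3 min, 16.5 ± 5.3 after 30 min, 12.5 ± 3 with low trypsin, 12.8 ± 2.1 with the cold-active protease and 14.7 ± 1.8 CPM in control (SD, n = 3 each). All 6 groups of Pgam1 overlapped their neighbours in level; the 95% intervals against control reached from -0.73 to 0.68 on the log2 scale.

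Among the 9 tested genes, Eno1 had the largest log2 change after 30 s, after 30 min and with low trypsin, while Hk2 had the largest after 3 min and Pgk1, not called, with the cold-active protease. Eno1 encodes enolase 1, the ubiquitous form of the enzyme that makes phosphoenolpyruvate, and an alternative product of the gene is known in human cells as a repressor of Myc transcription. Eno1 had 189.9, 201.3 and 208.3 CPM after 30 s, 263.2, 263.4 and 303.6 CPM after 3 min, and 147.7, 135.7 and 134.9 CPM after 30 min. It had 191.3, 202.5 and 230.3 CPM with low trypsin, 249.8, 232.7 and 235.3 CPM with the cold-active protease, and 363.9, 320.9 and 318.2 CPM in control. Every treated library was below every control library. In order of mean level, 30 min was lowest, then 30 s and low trypsin, which overlapped, then the cold-active protease, 3 min and control, with no overlap between these neighbours.

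Eno1 fell after all 5 treatments. Relative to control, the log2 change was -1.26 ± 0.08 (SE) after 30 min, the libraries averaging 140 ± 7.2 CPM against 334 ± 26 CPM in control (SD, n = 3 each; edgeR adjusted p = 7.16e-18). It was -0.74 ± 0.07 after 30 s (adjusted p = 1.95e-11), -0.27 ± 0.07 after 3 min (edgeR adjusted p = 0.0148), -0.68 ± 0.07 with low trypsin (adjusted p = 6.72e-10) and -0.48 ± 0.07 with the cold-active protease (adjusted p = 1.97e-05). The 3 min call was lost without control replicate 1 (edgeR adjusted p = 0.151) and without 3 min replicate 1 or 2 (adjusted p = 0.109 and 0.122), while the other 4 held in each fit that left out 1 library. Along the time series the fall was smaller at 3 min than at 30 s or 30 min: 3 min was higher than 30 s (log2 0.47 ± 0.08, edgeR adjusted p = 2.59e-05), and 30 min was lower than 3 min (-0.99 ± 0.08, adjusted p = 7.56e-14) and lower than 30 s (-0.52 ± 0.08, adjusted p = 7.33e-06). The low trypsin libraries, kept for 3 min after the enzyme was taken off, were lower than the 3 min libraries (-0.41 ± 0.08, edgeR adjusted p = 0.0001).

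The mRNA end of Eno1 is shared as well. Of its 45-base windows, 77.6% also occur in other genes, 5 in all and 3 of them with counts, chiefly Eno1b. Those genes held 283 counts against 7969 for Eno1. With their counts added, Eno1 averaged 211 ± 11 CPM after 30 s, 284 ± 25 after 3 min, 148 ± 6.2 after 30 min, 217 ± 23 with low trypsin, 245 ± 9.4 with the cold-active protease and 342 ± 29 CPM in control (SD, n = 3 each). The sum fell after all 5 treatments (log2 -0.69, -0.26, -1.21, -0.65 and -0.47 in that order; edgeR adjusted p = 0.0223 or less). Reads dropped for matching more than 1 gene leave no trace in the counts, so their part was not tested. Eno3, the muscle enolase, has no shared window and had 864.2, 840.7 and 891.4 CPM after 30 min, 856.7, 850.1 and 928.3 CPM with low trypsin, and 982.6, 984.2 and 1054 CPM in control. Eno3 fell after 30 min (log2 -0.22 ± 0.05 SE, edgeR adjusted p = 0.00266) and with low trypsin (-0.20 ± 0.05, adjusted p = 0.00666), and the low trypsin call was lost without control replicate 3 or low trypsin replicate 2 (adjusted p = 0.0951 and 0.0622). It was not called after 30 s, after 3 min or with the cold-active protease, where its means were 960 ± 17, 954 ± 5.1 and 951 ± 7.5 CPM.

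Pkm, pyruvate kinase, fell where Tpi1 rose. The enzyme makes pyruvate and ATP, and its M1 and M2 splice forms, known for the switch between adult muscle and proliferating cells, cannot be told apart in gene counts. Pkm had 1717, 1651 and 1670 CPM after 30 s, 1843, 1849 and 1958 CPM after 3 min, and 1777, 1830 and 1808 CPM after 30 min. It had 1708, 1707 and 1808 CPM with low trypsin, 1895, 1875 and 1900 CPM with the cold-active protease, and 2143, 1976 and 1900 CPM in control. The libraries of 30 s, 30 min, low trypsin and the cold-active protease were below all control libraries, the last group by less than the rounding shown. Control replicate 1 was the highest of all. The cold-active protease difference was not called (log2 -0.09 ± 0.05 SE, edgeR adjusted p = 0.612). Pkm fell after 30 s (log2 -0.26 ± 0.05 SE, edgeR adjusted p = 3.86e-05), after 30 min (-0.15 ± 0.05, adjusted p = 0.0397) and with low trypsin (-0.20 ± 0.05, adjusted p = 0.00203). The 30 min call was lost without control replicate 1 or 2 or any 30 min library (edgeR adjusted p = 0.0644 to 0.296), and the low trypsin call without control replicate 1 (adjusted p = 0.052). The 30 s call held in each fit that left out 1 library.

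Ldha, which turns pyruvate into lactate, was not called against control after any treatment. It had 984.9, 1024 and 1048 CPM after 30 s, 1013, 979.8 and 973.7 CPM after 3 min, and 920.2, 858.5 and 917.3 CPM after 30 min. It had 921.5, 943.3 and 956.8 CPM with low trypsin, 955.6, 940.2 and 876.4 CPM with the cold-active protease, and 982.6, 923.2 and 934.3 CPM in control. The 30 s libraries were above and the 30 min libraries below all control libraries, with differences of 0.11 ± 0.05 and -0.075 ± 0.05 (SE; edgeR adjusted p = 0.257 and 0.508). The 95% intervals against control ran from -0.17 to 0.20 over the 5 treatments. Ldhb, the other main subunit, was not called in any comparison with control.

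In 30 min against 30 s of trypsin, 4 of the 9 genes were called and all fell, where 4.93% of all genes were called (2.82% higher, 2.11% lower): Eno1, Hk2, Aldoa and Ldha. Hk2 averaged 33.2 ± 8 CPM after 30 min and 49.1 ± 1.5 CPM after 30 s (SD, n = 3 each; log2 -0.56 ± 0.16 SE, edgeR adjusted p = 0.0194), and lost the call without 30 s replicate 1 or 3 or 30 min replicate 1 (adjusted p = 0.0546 to 0.24) and with DESeq2 (0.0632). Aldoa (-0.19 ± 0.05) and Ldha (-0.18 ± 0.05), both with an edgeR adjusted p of 0.0167, lost theirs without 30 s replicate 2 or 3 or 30 min replicate 2 (0.0844 to 0.224). Tpi1, which also rose after 30 s, was not called lower after 30 min (675 ± 26.5 CPM) than after 30 s (737 ± 20 CPM; log2 -0.13 ± 0.05, edgeR adjusted p = 0.206). In 3 min against 30 s, 3 of 9 genes were called against 1.94% of all genes (0.476% higher, 1.46% lower): Eno1 rose, Tpi1 fell (-0.26 ± 0.05, edgeR adjusted p = 0.00133) and Pkm rose (0.17 ± 0.05, adjusted p = 0.039). The Pkm call was lost in each of the 6 fits that left out 1 library (edgeR adjusted p = 0.0648 to 0.284). In 30 min against 3 min, Eno1 fell and no other member was called, 1 of 9 against 4.03% of all genes (2.83% higher, 1.2% lower).

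At a matched 3 min at 37 °C, low trypsin and full trypsin differed in 2 of the 9 genes, against 4.36% of all genes (3.78% higher, 0.576% lower). Eno1 was lower with low trypsin, as given above, and Tpi1 was higher, at 700 ± 23 CPM with low trypsin and 614 ± 15 CPM after 3 min (SD, n = 3 each; log2 0.19 ± 0.05 SE, edgeR adjusted p = 0.0264). The Tpi1 call was lost without 3 min replicate 2 or 3 or low trypsin replicate 1 or 2 (edgeR adjusted p = 0.0812 to 0.143). Cold-active protease against 3 min of trypsin gave 0 calls among the 9 genes with edgeR and 0 with DESeq2. There edgeR called 3.7% of all genes (2.84% higher, 0.864% lower). The smallest edgeR adjusted p-values among the 9 were 0.113 for Aldoa (log2 -0.15 ± 0.05), 0.14 for Hk2 (-0.44 ± 0.16) and 0.143 for Eno1 (-0.21 ± 0.07). Temperature and duration differ between these groups along with the enzyme, and they cannot be told apart. The 3 min libraries enter 5 of the 10 comparisons between groups, so those values are not independent.

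The genes whose pattern over the 18 libraries was most like that of each called member were taken by Pearson's r of log2 CPM among 8532 genes, as a description; libraries of a group, scaling and depth are shared by all points. For Eno1 these were Hspa8 (r = 0.968), a constitutive chaperone, Psap (0.947), the precursor of the saposins, and Ftl1 (0.947), ferritin light chain. Of the windows in their mRNA ends, 82% were shared with other genes for Hspa8, 83.3% for Ftl1 and 0% for Psap. Those for Hk2 were Ipmk (0.829), an inositol polyphosphate kinase, the Gapdh-like Gm7336 (0.804) and Chm (0.803), a Rab escort protein. Aldoa was closest to Pcgf2 (0.901), a Polycomb protein, Gm13339 (0.899) and Tsnax (0.897). Tpi1 was closest to the pseudogenes Rpl10a-ps1 (0.908) and Gm10175 (0.9) and to the kinase Nek7 (0.884). Pkm was closest to the ribosomal protein gene Rpl8 (0.869), the cell cycle gene Cdc20 (0.862) and the ribosomal protein gene Rps2 (0.86). Among the members themselves, over 18 libraries, Aldoa varied with Tpi1 (r = 0.726), Ldha (0.692) and Hk2 (0.68), Eno1 varied with Pkm (0.655), and Tpi1 varied against Pkm (-0.892) and Eno1 (-0.717).

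Among the other glycolysis genes, only Eno3 and Minpp1 were called against control. Of 25 isoforms and enzymes of the remaining steps, 12 were tested. Against control 0 were called after 30 s, after 3 min and with the cold-active protease (smallest edgeR adjusted p = 0.435, 0.547 and 0.673). Of all tested genes 6.94%, 3.96% and 0.665% were called there, so 0 of 12 is no result about the list. After 30 min Eno3 and Minpp1 fell, where 2.61% of all genes were called lower. With low trypsin Eno3 fell, where 1.9% of all genes were called lower. Minpp1, an inositol polyphosphate phosphatase that also acts on 2,3-bisphosphoglycerate, had 26.4, 23.6 and 15.8 CPM after 30 min and 37.9, 36.2 and 35.8 CPM in control (log2 -0.73 ± 0.19 SE, edgeR adjusted p = 0.0148), and lost the call without 30 min replicate 3 (adjusted p = 0.136). The phosphofructokinases Pfkl, Pfkm and Pfkp and the isomerase Gpi1, which sit between hexokinase and aldolase, were not called against control. Gpi1 averaged 263 ± 21 CPM after 30 s and 241 ± 15 CPM in control, and Pfkl 125 ± 6.6 and 129 ± 7.7 CPM (SD, n = 3 each). The 5 enzymes that set fructose 2,6-bisphosphate, the activator of phosphofructokinase, gave 0 calls against control (smallest edgeR adjusted p = 0.49).

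Around pyruvate, single genes were called. Of 3 tested genes of lactate and pyruvate transport, 1 rose and 1 fell after 30 s, and 1 rose with low trypsin. Of all tested genes 3.24% rose and 3.7% fell after 30 s, and 3.3% rose with low trypsin. Counts in a list of 3 genes are no result about the list. Slc16a1 encodes the lactate transporter MCT1 and had 228.1, 214.4 and 210.2 CPM with low trypsin and 147.6, 185.6 and 173.5 CPM in control, above all control libraries. It rose with low trypsin (log2 0.36 ± 0.08 SE, edgeR adjusted p = 0.00416; 0.0646 without control replicate 1) and after 30 s (0.27 ± 0.09, adjusted p = 0.0445), a call lost without control replicate 1 or 3 or 30 s replicate 1 or 3 (adjusted p = 0.0932 to 0.292). Mpc2, a subunit of the mitochondrial pyruvate carrier, fell after 30 s (133 ± 9.8 CPM against 174 ± 11 CPM in control; log2 -0.39 ± 0.08, edgeR adjusted p = 0.000639). Among 11 tested genes of pyruvate dehydrogenase and its regulators, 1 rose after 30 min and 1 with low trypsin. Of all tested genes 2.07% and 3.3% were called higher there, and counts in a list of 11 genes are no result about the list. Pdha1, the catalytic subunit, rose after 30 min (154 ± 14 CPM against 117 ± 5.6 CPM in control; 0.40 ± 0.09, edgeR adjusted p = 0.00186). Pdk4, a kinase that inhibits the complex, rose with low trypsin (66.8 ± 8 CPM against 38.4 ± 4.7 CPM in control; SD, n = 3 each; 0.79 ± 0.14, edgeR adjusted p = 4.08e-05). In the tricarboxylic acid cycle, 4 of 22 genes rose after 30 s and 4 with low trypsin, Sdhd, Cs, Fh1 and Aco1 in both, where 3.24% and 3.3% of all tested genes were called higher, and 2 after 3 min, Sdhd and Cs, against 1.01%; 0 were called after 30 min or with the cold-active protease. Sdhd, a membrane anchor of succinate dehydrogenase, averaged 185 ± 14 CPM after 30 s, 126 ± 9.8 after 3 min, 205 ± 12 with low trypsin and 88.4 ± 8.7 CPM in control (SD, n = 3 each). Citrate synthase (Cs) averaged 663 ± 17 CPM after 30 s, 662 ± 26 with low trypsin and 527 ± 37 CPM in control, a log2 change of 0.33 ± 0.06 for both (edgeR adjusted p = 1.24e-05 and 2.54e-05). The Fh1 call was lost without control replicate 2 in both comparisons and, with low trypsin, without low trypsin replicate 3, and that of Aco1 in 4 of 6 such fits in each (highest edgeR adjusted p = 0.396).

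**Figure D4:**
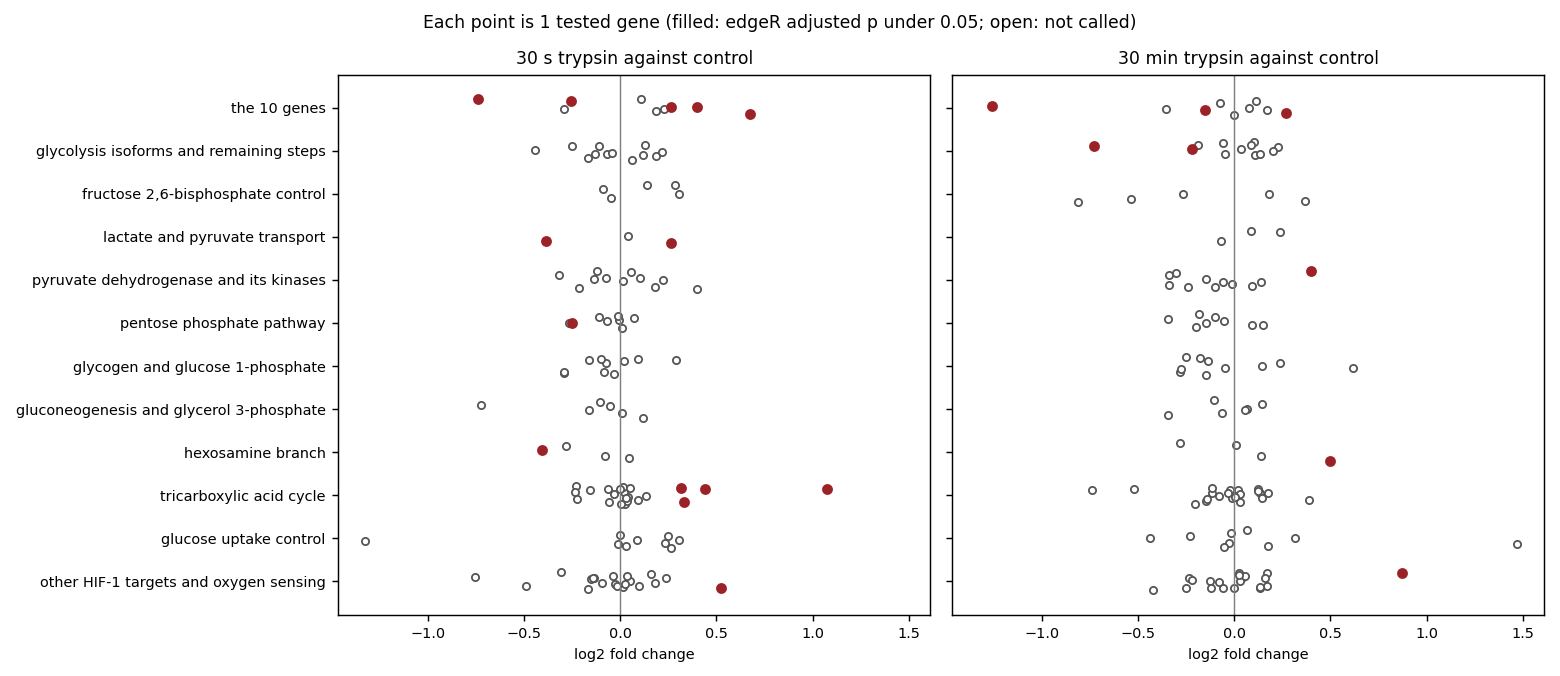
Log2 fold change against control (x axes) after 30 s (left) and 30 min (right) of trypsin for each tested gene (points) of the 10 genes and of 11 lists of neighbouring pathways (rows); filled points had an edgeR adjusted p under 0.05. After 30 s, 5 of 9 members and 4 of 22 genes of the tricarboxylic acid cycle are filled, and none of the 12 other glycolysis genes. Of all tested genes, 6.94% were called in that comparison.

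Side branches and regulators held few calls, in comparisons where 6.94% (30 s), 4.68% (30 min) and 5.19% (low trypsin) of all tested genes were called. In the pentose phosphate pathway 1 of 8 genes fell after 30 s, the transaldolase Taldo1 (262 ± 14 CPM against 312 ± 11 CPM in control; SD, n = 3 each; log2 -0.25 ± 0.06 SE, edgeR adjusted p = 0.00453), and 1 with low trypsin, Pgd (-0.20 ± 0.06, adjusted p = 0.0341), a call lost in 5 of 6 fits that left out 1 library (0.0559 to 0.238). In the hexosamine branch Uap1 fell after 30 s (-0.41 ± 0.13, edgeR adjusted p = 0.0424) and Oga, which removes O-GlcNAc from proteins, rose after 30 min (0.50 ± 0.15, adjusted p = 0.037); the calls were lost in 5 and 6 of 6 such fits. None of the 10 tested genes of glycogen metabolism and none of the 6 of gluconeogenesis was called against control (smallest edgeR adjusted p = 0.0776 and 0.22). The 9 tested genes that control glucose uptake gave 0 calls against control (smallest edgeR adjusted p = 0.0643). Among them, Txnip, an arrestin-like inhibitor of glucose uptake, was higher after 30 min, with 20, 9 and 13 counts, than after 3 min, with 3, 2 and 1 counts (edgeR adjusted p = 0.00165), and had 3, 5 and 9 counts in control.

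Among 20 tested HIF-1 targets and oxygen-sensing genes outside glycolysis, 1 was called after 30 s, 1 after 3 min, 1 after 30 min, 2 with low trypsin and 0 with the cold-active protease. Of all tested genes 6.94%, 3.96%, 4.68%, 5.19% and 0.665% were called in these comparisons, and the counts in a list of 20 genes are no result about the list. Plod2, a collagen lysyl hydroxylase, rose after 30 s (54.4 ± 4.6 CPM) and with low trypsin (57.8 ± 5.1 CPM) against 38.1 ± 4.1 CPM in control (SD, n = 3 each; edgeR adjusted p = 0.0067 and 0.00203). The 30 s call was lost without control replicate 3 or 30 s replicate 1 (edgeR adjusted p = 0.089 to 0.0994). Vegfa, the angiogenic growth factor, rose with low trypsin (0.50 ± 0.12, edgeR adjusted p = 0.00527). Ddit4, an inhibitor of mTORC1, had 128.2, 115.8 and 94.6 CPM after 30 min and 65.5, 58.6 and 61.8 CPM in control, without overlap (log2 0.87 ± 0.12 SE, edgeR adjusted p = 5.36e-07). Higd1a, a mitochondrial protein, fell after 3 min (-0.78 ± 0.18, edgeR adjusted p = 0.00321; 0.111 without 3 min replicate 2). The median of these 20 genes against control lay between -0.06 and 0.06 on the log2 scale in the 5 comparisons.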

How the data were processed

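The authors deposited raw counts per gene for 18 libraries of C2C12 cells, 6 groups of 3, grouped here by the labels. Per the submitters' processing notes, the build was GRCm38 and the tools named were HISAT2 2.1.0 (alignment software), featureCounts 2.0.1 (read counting), Trim Galore 0.6.6 with cutadapt 2.6 (trimming), UMI-tools 1.0.1 (molecular barcodes) and DESeq2 1.28.1. Their settings, the strand and the treatment of multimapping reads are not given in the sources used here. Deposited tables of scaled counts and TPM were not used. All 18 libraries entered 1 edgeR 4.0.16 fit (R 4.3.3, limma 3.58.1) with filterByExpr, TMM scaling and no covariate, tested by quasi-likelihood with Benjamini-Hochberg adjustment over 10075 genes; 95% intervals are the estimate ± 1.96 SE. DESeq2 1.42.0, other scalings and filters, a replicate block and leaving out each library were alternatives. Library totals were 1490869 to 2480690 counts, and floors of 3 counts cover counting error only. Exact permutation of 3 against 3 libraries cannot go below p = 0.1 and was not used. On data simulated for 30 s against control (9851 genes), 96% of genes raised by 1 and 50% raised by 0.5 on the log2 scale were recovered, as were 80% lowered by 1 and 68% lowered by 0.5. Shared mRNA ends were found by exact 45-base matches in GENCODE M21 transcripts with Python 3.11.15.

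The 10 genes and the lists were chosen with earlier results of these data known. All 10 are named; from each other list, up to 4 called genes with the smallest p per comparison with control, any called isoform, copies of a member, and the 3 genes most like each member called over all 6 groups (mean of at least 10 CPM).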

Additional observations from a re-analysis of the deposited data

How the results depend on the processing

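Of 807 results of single glycolytic genes under other settings, 794 kept their side of the threshold, 12 lost the call and 1 gained it. With 1 library left out, 495 of 540 kept their side, 44 lost the call and 1 gained it. In both sets 0 calls reversed direction. These totals include results not called with all libraries, whose sign could change. For Pgam1 after 30 s, for example, the log2 change ran from -0.05 to 0.32 with 1 library left out. Members called after 3 min against control numbered 3, but 1 with no filter on low counts and 0 to 2 with 1 library left out. Among all genes the calls numbered 399 of 10075, 375 of 25957 with no filter and 290 to 375 with 1 library left out. Fits that left out 1 library tested 10202 to 10223 genes. Left-out libraries gave 1 to 4 for 30 min against 30 s (4 with all libraries) and 1 to 2 for low trypsin against 3 min (2 with all libraries). Among all genes these fits called 395 to 458 (497 with all libraries) and 339 to 426 (439 with all libraries). The causes were not tested. What libraries of a lot have in common is not stated in the sources. Same-lot libraries of different groups had correlations of -0.06 to 0.07 between their deviations from the group means, and libraries of different lots -0.06 to 0.08. These values run over all tested genes and hold counting noise, so they cannot show that lots were unpaired. With the lot as replicate block, 5 members were called after 30 s, 2 after 3 min, 3 after 30 min, 5 with low trypsin and 1 with the cold-active protease against control. In the same order, the block fit called 688, 378, 459, 526 and 63 of all 10075 tested genes. Under the block, Aldoa after 3 min was the member that lost its call (edgeR adjusted p = 0.0531). With counts of genes sharing the mRNA end added, an alternative chosen after seeing the data, Gapdh joined the called genes after 30 s and with low trypsin. Pgam1 had 19 to 42 counts a library, and its SE against control was 0.25 to 0.27 on the log2 scale.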

Other observations

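Of the 7 tested myoblast markers, Myf5, a myogenic transcription factor, was called against control, averaging 116 ± 9.2 CPM after 30 s, 123 ± 14 after 30 min, 92.7 ± 6.1 with low trypsin and 72.1 ± 19 CPM in control (SD, n = 3 each; edgeR adjusted p = 1.4e-05, 4.08e-06 and 0.0481). The low trypsin libraries overlapped control, and that call was lost without control replicate 2 or 3 or low trypsin replicate 2 or 3 (edgeR adjusted p = 0.147 to 0.418), with the lot as replicate block (0.0529), with only the groups compared (0.0605) and with DESeq2 (adjusted p = 0.107). Of 8 tested markers of differentiating muscle, Mylpf, a fast myosin light chain, fell after 30 s, after 3 min and with low trypsin, averaging 62.3 ± 3.6, 57.6 ± 16 and 69.5 ± 10 CPM against 101 ± 9.5 CPM in control (edgeR adjusted p = 4.13e-05, 7.08e-06 and 0.00256). Acta1, skeletal muscle actin, fell after 30 min (67.3 ± 8.1 CPM against 95.3 ± 15 CPM in control; adjusted p = 0.00911), a call lost without control replicate 1 (adjusted p = 0.118) or 30 min replicate 3 (adjusted p = 0.0904). Eno3, on the same list, fell after 30 min and with low trypsin, as given above. The median log2 change of the 7 myoblast markers was 0.04 after 30 s, 0.09 after 30 min and -0.06 with low trypsin. Of all tested genes 6.94% (30 s), 3.96% (3 min), 4.68% (30 min) and 5.19% (low trypsin) were called, and counts in lists of 7 and 8 genes are no result about the lists. The part of the marker genes in the glycolytic values was not tested.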
